A study of Homo sapiens with 6 samples.

Results

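Expression of 55 interferon-stimulated genes was compared between HCT116SCs transfected with a negative control small interfering RNA (siRNA; NC) and HCT116SCs transfected with an siRNA against PSCA (siPSCA). The members were picked by gene symbol from the 58735 genes of the expression table, and they comprise 44 effectors together with 11 transcription factors, receptors and kinases that carry the interferon signal. HCT116 is a human colorectal carcinoma cell line, and HCT116SCs are its CD44+CD326+ cells, sorted on magnetic beads and grown as tumour spheres in serum-free medium with epidermal growth factor, basic fibroblast growth factor and B27. Each group held 3 libraries, labelled wild type and harvested 48 h after liposomal transfection, so that all 6 libraries carried the reagent and an siRNA. All cells came from 1 sorted line, and the sources name 3 PSCA siRNA sequences without tying one to these libraries. The titles of siPSCA 2 and siPSCA 3 spell the line with another number, whereas their remaining labels say HCT116. The labels do not state whether the 3 libraries of a group came from separate cultures, so p-values measure only the spread between these libraries.

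Interferons are secreted proteins that warn cells of viral infection. Type I interferons bind the receptor chains IFNAR1 and IFNAR2, and the lambda interferons bind IFNLR1 and IL10RB, which epithelial cells express. Both receptors pass the signal through the kinases JAK1 and TYK2 to transcription factors, among them STAT2, which joins IRF9 in a complex that binds interferon-stimulated response elements in promoters. Interferon gamma instead uses IFNGR1 and IFNGR2, and its signal reaches gamma-activated sites. The proteins made in response block viral entry, translation, replication or release, tag other proteins with ISG15, or shut the signal off again.

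The libraries held between 16099716 and 17302219 reads on genes, and 6.33% to 7.95% of these reads were mitochondrial. PSCA, the targeted gene, was covered by 4, 12 and 15 reads in NC against 9, 9 and 7 in siPSCA. The groups overlapped for PSCA (log2 fold change -0.07, exact permutation p = 0.5), and a fall of its transcript was not detectable at this depth. The epithelial markers EPCAM (93.3 to 123 FPKM over the 6 libraries) and KRT19 (304 to 378 FPKM) were abundant, as was CD44 (59.6 to 87.5 FPKM). FPKM counts fragments per kilobase of gene length, scaled to library size. Of 17 markers of leukocytes, plasmacytoid dendritic cells, fibroblasts and endothelium, 15 stayed at or below 0.268 FPKM in every library, among them CD3E of T cells and CLEC4C of plasmacytoid dendritic cells, which had no read. The other markers were IL3RA (0.449 to 1.08 FPKM), which plasmacytoid dendritic cells carry, and COL1A1 of fibroblasts (3.35 to 6.51 FPKM). In bulk RNA, fewer responding cells and less RNA per cell cannot be told apart.

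Most tested effectors were higher in siPSCA. A mean of at least 1 FPKM was reached by 43 members, and these were tested among 13796 genes with limma on log2(FPKM + 1), with Benjamini-Hochberg adjustment over all of them and a threshold of 0.05. Of the 43 tested members, 24 (55.8%) rose in siPSCA, beside 26.6% of all tested genes, and 5 (11.6%) fell, beside 24.2% of all tested genes. In either direction 67.4% of tested members and 50.7% of all genes were called. The members were chosen with earlier results of these data known, so these shares are descriptions and not an independent test. The groups did not overlap, with siPSCA higher, for 27 tested members, beside 33.7% of all genes, and with siPSCA lower for 9, beside 30.8% of all genes. The median log2 fold change was 0.28 over the tested members and 0.01 over all tested genes. Among 33 tested effectors 22 rose and 2 fell, with a median of 0.35. Among the 10 tested transcription factors, receptors and kinases 2 rose and 3 fell, shares close to those of all tested genes, with a median of -0.09.

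**Figure D1:**
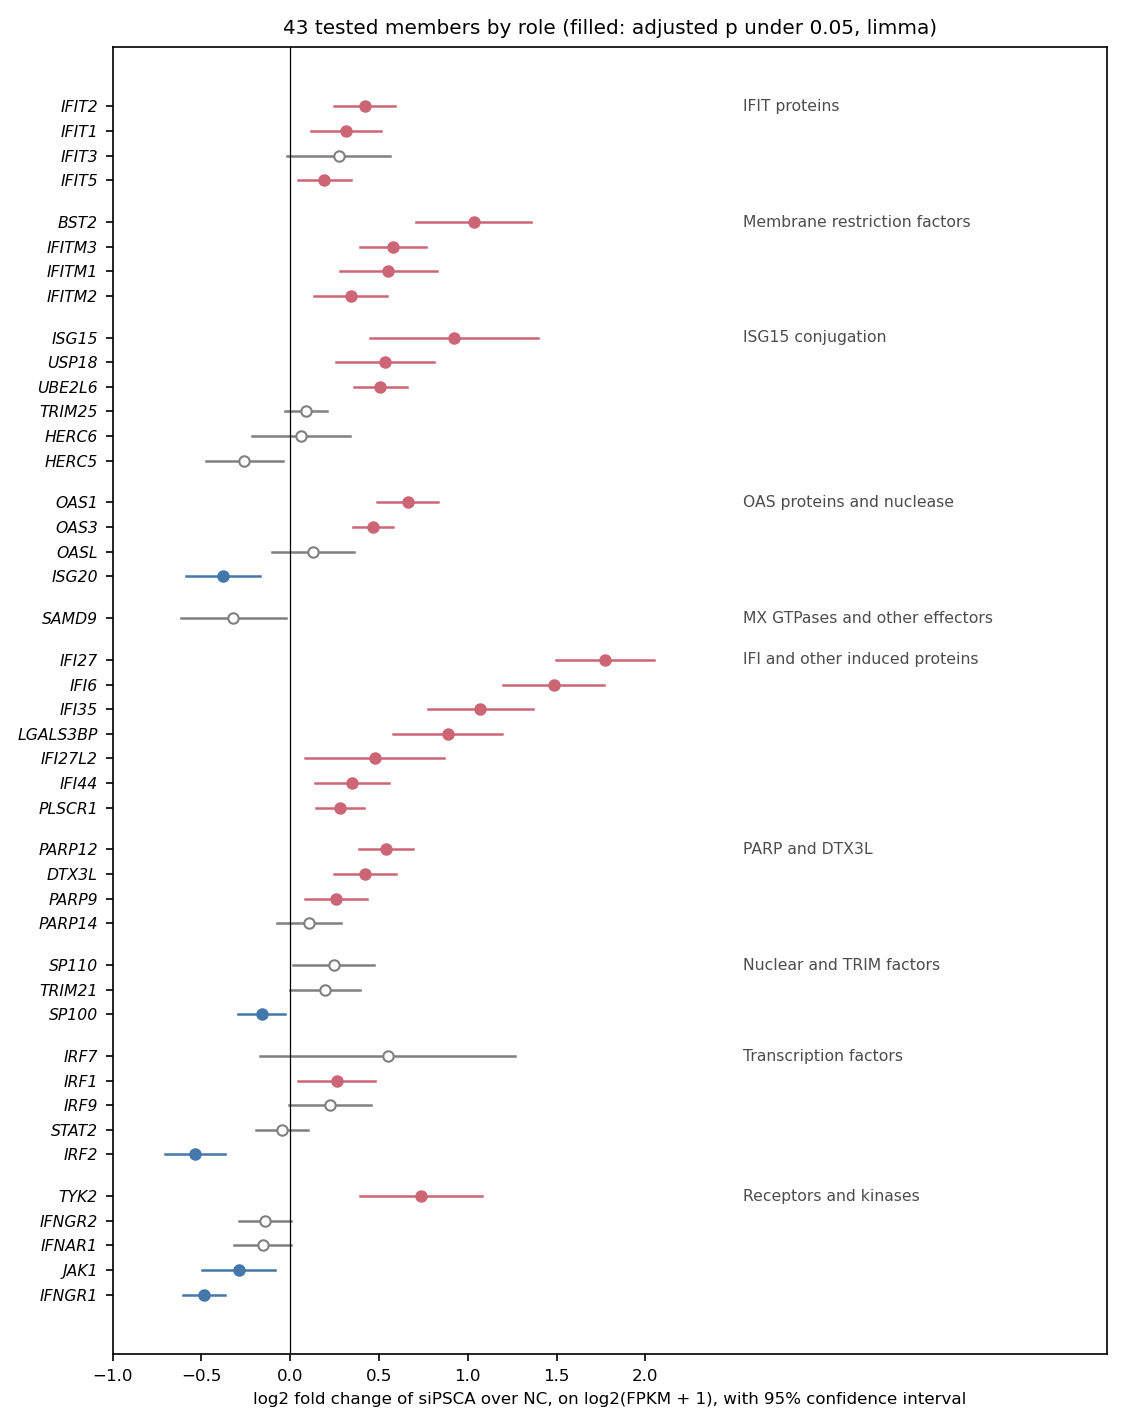
Log2 fold change of siPSCA over NC on log2(FPKM + 1) for the 43 tested members, grouped by role, with 95% confidence intervals; filled points passed the adjusted threshold of limma, red higher and blue lower in siPSCA. The points of the IFI group reach 1.77 (IFI27), whereas the lowest point is IRF2 at -0.54.

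The fold changes moved with base composition in the whole table. Across the 13792 tested genes with a known GC content, the log2 fold change and the GC content of the longest transcript had a Spearman correlation of 0.66, and across the 43 tested members of 0.60. Genes share their libraries, so these values are descriptions. The library NC 3 differed from NC 1 and NC 2 along the same axis: the correlation of its deviation from their mean with GC content was -0.56, so GC-rich genes were lower in it. After subtraction of this GC trend, together with one on gene length, within each library, 24 tested members rose, beside 21.2% of all tested genes, and 5 fell, beside 18.4%, with a median of 0.31 over the tested members and 0.02 over all genes. IFITM2, IFI27L2, IRF1 and SP100 lost their calls, and IFIT3, PARP14, SP110 and IFNGR2 gained one. Without NC 3 the median was 0.32. The size of single changes did depend on the trend. Values with the trend removed are given beside members whose call or direction they changed and beside called changes that they moved by over 1.5 times. The trend goes along with the groups, so its removal can also take out a difference between them. Its source was not tested.

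**Figure D2:**
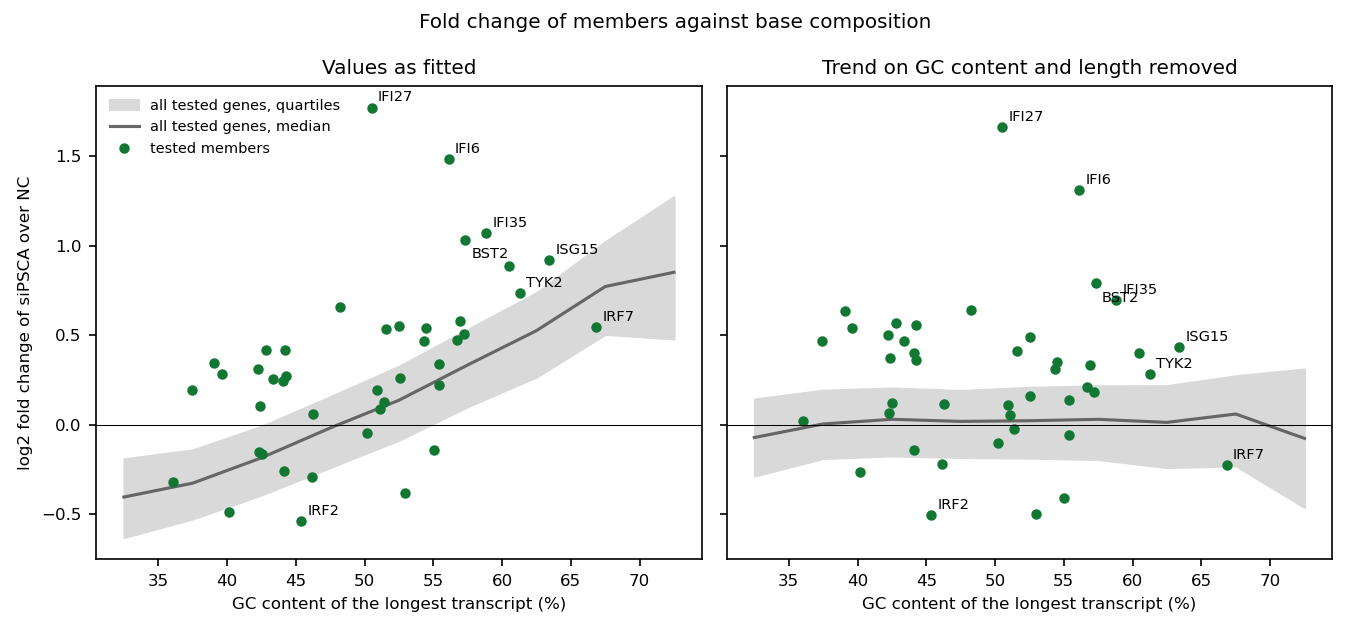
Log2 fold change of siPSCA over NC against GC content of the longest transcript (%) before (left) and after (right) the trend was taken out; green points are the 43 tested members, and the grey line and band are the median and quartiles of all tested genes. The grey line climbs with GC content on the left and runs near 0 on the right, where IFI27 and IFI6 still stand at 1.67 and 1.31.

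The group of IFI genes, named for their induction by interferon, and of other induced proteins held 7 tested members, and all 7 rose. The 3 largest log2 fold changes of all tested members were in this group, those of IFI27, IFI6 and IFI35. IFI27 (chr14:94104836-94116698), which encodes a small hydrophobic protein, was at 5.63, 5.26 and 4.09 FPKM in NC and at 20.8, 19.7 and 17.7 FPKM in siPSCA. The groups lay far apart, and the spread within each was small beside the gap. The means were 4.99 ± 0.804 and 19.4 ± 1.58 FPKM (SD, n = 3 each), and on the log2 scale IFI27 rose by 1.77 with an SE of 0.11 (adjusted p = 0.000408, limma).

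IFI6 (chr1:27666061-27672218), a related hydrophobic protein that protects infected cells from death, was at 107, 109 and 84.1 FPKM in NC and at 306, 277 and 259 FPKM in siPSCA. It was already among the abundant members in NC, and every siPSCA library exceeded every NC library. Its log2 fold change was 1.48 with an SE of 0.12 (adjusted p = 0.0007, limma). IFI35 (chr17:43006725-43014456), a leucine-zipper protein, was at 7.63, 7.22 and 5.30 FPKM in NC and at 14.9, 15.5 and 14.7 FPKM in siPSCA, a log2 fold change of 1.07 (adjusted p = 0.00161) that became 0.70 with the GC trend removed. LGALS3BP, a secreted glycoprotein that binds galectins, was at 138, 133 and 98.6 FPKM in NC and at 228, 226 and 224 FPKM in siPSCA. Its 3 siPSCA libraries were nearly level, and NC 3 was the lowest of the NC libraries, as it was for IFI27, IFI6 and IFI35. The log2 fold change of LGALS3BP was 0.89 (adjusted p = 0.00293), and 0.40 with the GC trend removed.

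PLSCR1, a phospholipid scramblase that hinders viral entry, went from 9.59 ± 0.380 to 11.9 ± 0.495 FPKM (SD, n = 3 each; log2 fold change 0.28, adjusted p = 0.00807, limma). IFI44 went from 6.98 ± 0.841 to 9.12 ± 0.446 FPKM (0.35, adjusted p = 0.0180). For these AT-rich transcripts the log2 fold change was larger with the GC trend removed, 0.54 for PLSCR1 and 0.63 for IFI44. IFI44 lost its call in 3 of the 6 fits that left out 1 library, namely those without NC 2, siPSCA 2 or siPSCA 3 (adjusted p of 0.0549 to 0.0612). IFI27L2, a relative of IFI27, stood at the threshold, with an adjusted p of 0.0498. It was at 9.18, 8.46 and 5.65 FPKM in siPSCA against 5.59, 5.15 and 4.89 FPKM in NC, so that siPSCA 3 lay close to NC. Its call was lost in 5 of those 6 fits, all but the one without siPSCA 3, and with the GC trend removed (log2 fold change 0.21).

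**Figure D3:**
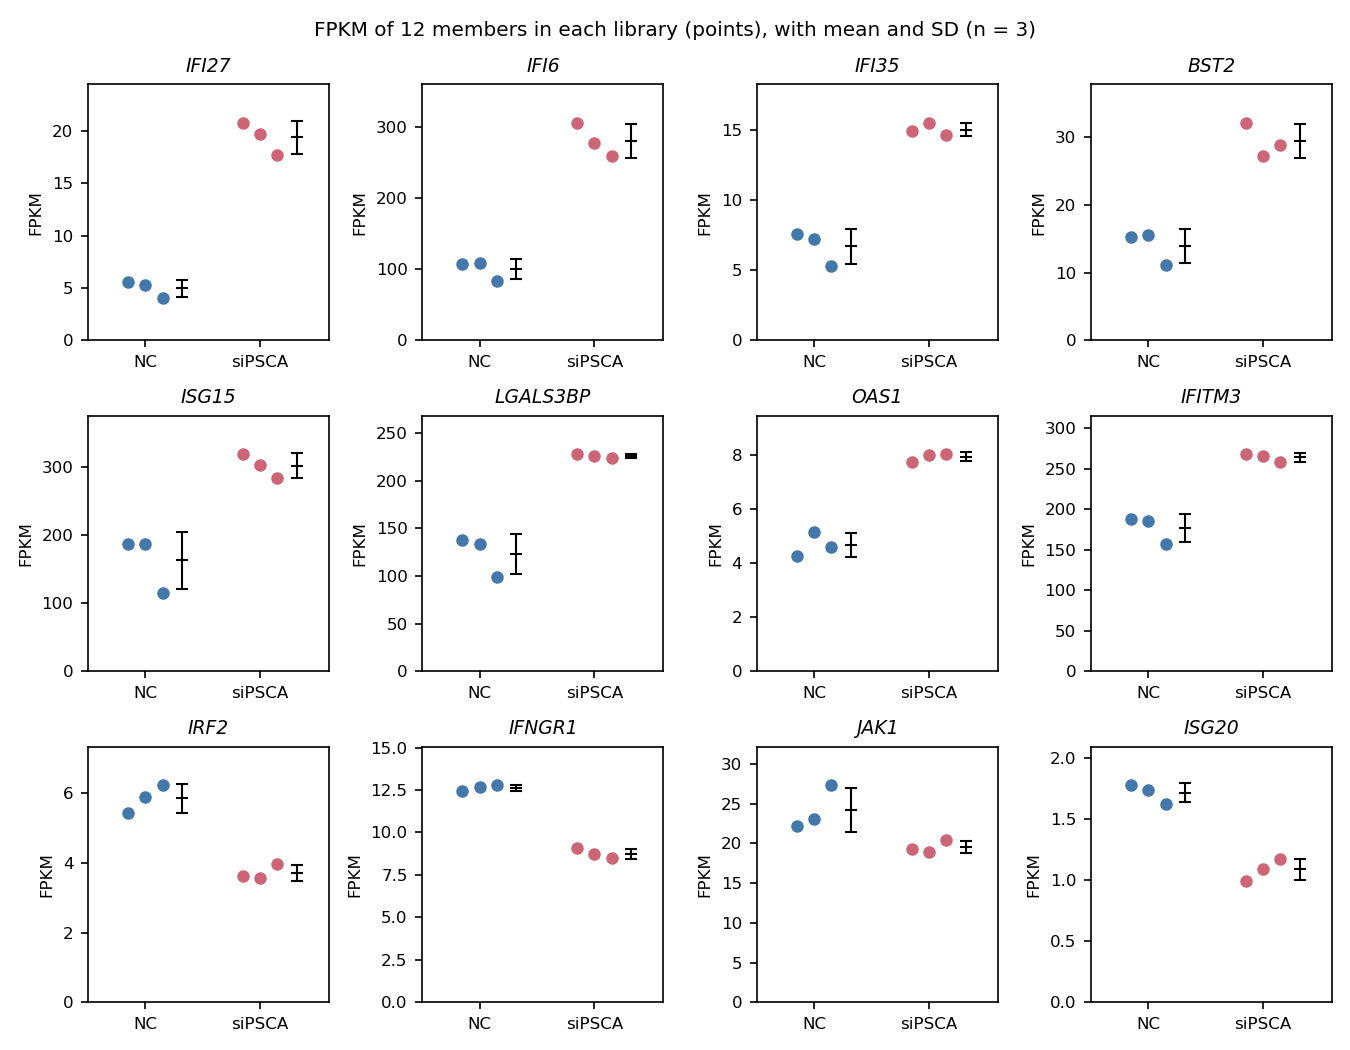
FPKM of 12 members in each library (points; linear axis from 0), with mean and SD (n = 3) beside them, NC in blue and siPSCA in red. The siPSCA points lie above all NC points for the 8 genes from IFI27 to IFITM3 and below all NC points for IRF2, IFNGR1, JAK1 and ISG20.

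The membrane restriction factors, which hold virus back at entry or release, rose in all 4 cases. BST2, or tetherin, which ties budding virions to the cell surface, was at 15.2, 15.5 and 11.1 FPKM in NC and at 32.1, 27.2 and 28.8 FPKM in siPSCA. The lowest siPSCA library thus lay well above the highest NC library. The log2 fold change of BST2 was 1.03 with an SE of 0.13 (adjusted p = 0.00218, limma), and 0.79 with the GC trend removed. IFITM3, which blocks the fusion of endocytosed virus, was at 188, 186 and 158 FPKM in NC and at 269, 265 and 258 FPKM in siPSCA (log2 fold change 0.58, adjusted p = 0.00235; 0.33 with the GC trend removed). IFITM1 and IFITM2, its neighbours on chromosome 11, rose by 0.55 (adjusted p = 0.00881) and 0.34 (adjusted p = 0.0178) on the log2 scale. IFITM2 lost its call with the GC trend removed (0.14, adjusted p = 0.108) and in the fits without siPSCA 1 or siPSCA 3. Of the 75-base windows of IFITM1, 39.7% also occur in IFITM2 or IFITM3. Exons of IFITM2 on the same strand overlap 32.5% of the exonic bases of IFITM1, so part of this sharing is a common stretch of the genome. The share of windows found in other genes was 7.21% for IFITM2 and 10.8% for IFITM3. Reads of these genes may thus have been divided between them.

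In the ISG15 system the modifier itself, its conjugating enzyme and its protease rose, and the other 3 members were not called. ISG15, a ubiquitin-like protein that is attached to other proteins, had the highest mean level of all members over the 6 libraries. It was at 187, 188 and 115 FPKM in NC and at 319.9, 304 and 284 FPKM in siPSCA. NC 3 stood apart below the other NC libraries, and the siPSCA libraries all lay above the NC range. The log2 fold change was 0.92 with an SE of 0.19 (adjusted p = 0.0103, limma). It was 0.69 without NC 3 and 0.44 with the GC trend removed, and it passed the threshold in each of these fits. UBE2L6, the conjugating enzyme for ISG15, was at 13.5, 13.3 and 12.7 FPKM in NC and at 20.5, 18.98 and 18.0 FPKM in siPSCA (0.51, adjusted p = 0.00180; 0.18 with the GC trend removed). USP18, which removes ISG15 and dampens signalling at the type I receptor, was at 6.15, 6.72 and 8.45 FPKM in NC and at 10.99, 11.2 and 9.80 FPKM in siPSCA (0.53, adjusted p = 0.0107). Of its 75-base windows, 18.3% also occur in USP41.

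The ISG15 ligase HERC5 was at 6.39, 7.30 and 8.06 FPKM in NC and at 5.84, 6.26 and 5.55 FPKM in siPSCA. Its groups did not overlap and siPSCA was the lower, with a log2 fold change of -0.26 just short of the threshold (adjusted p = 0.0505, limma). HERC5 passed the threshold in the fit without NC 1 (-0.33, adjusted p = 0.0205), and was at -0.14 (adjusted p = 0.166) with the GC trend removed. For HERC6, a related protein, the log2 fold change was 0.06 (adjusted p = 0.692), and for the ubiquitin ligase TRIM25 it was 0.09 (adjusted p = 0.166). TRIM25 passed only without NC 3 among the fits that left out 1 library (adjusted p = 0.0347).

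The IFIT proteins bind viral RNA and hold back its translation, and their genes lie side by side on chromosome 10. All 4 had positive log2 fold changes, from 0.19 to 0.42, and 3 rose. IFIT2 was at 4.38, 4.68 and 5.10 FPKM in NC and at 7.08, 6.50 and 6.36 FPKM in siPSCA (0.42, adjusted p = 0.00486, limma). IFIT1 was at 17.6, 18.6 and 21.5 FPKM in NC and at 24.3, 23.1 and 24.9 FPKM in siPSCA (0.31, adjusted p = 0.0201). For IFIT1 the libraries of the groups came close to one another, and its call was lost in 3 of the 6 fits that left out 1 library (those without NC 2, siPSCA 1 or siPSCA 3). IFIT5 (0.19, adjusted p = 0.0413) lost its call in 5 of those 6 fits, all but the one without NC 3. IFIT3, with NC 3 at 8.22 FPKM inside the siPSCA range of 7.74 to 8.63 FPKM, was not called (0.27, adjusted p = 0.1002), and it passed without NC 3 (0.41, adjusted p = 0.00279). These are AT-rich transcripts, and with the GC trend removed the log2 fold changes were 0.57 for IFIT2, 0.50 for IFIT1, 0.47 for IFIT5 and 0.36 for IFIT3, all past the threshold.

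Among the 2′-5′-oligoadenylate synthetases (OAS), enzymes that sense double-stranded RNA and switch on the nuclease RNase L, OAS1 and OAS3 rose. OAS1 was at 4.26, 5.13 and 4.58 FPKM in NC and at 7.74, 7.996 and 8.03 FPKM in siPSCA (log2 fold change 0.66, adjusted p = 0.00138, limma). OAS3 was at 32.02, 33.3 and 34.4 FPKM in NC and at 47.2, 45.9 and 45.9 FPKM in siPSCA (0.47, adjusted p = 0.00119). Both pairs of groups were clearly apart, and NC 3 was not the lowest NC library for either. OASL, a relative without synthetase activity, was at 0.13 (adjusted p = 0.305) with overlapping groups, and at -0.02 with the GC trend removed. ISG20, a nuclease that degrades single-stranded RNA, fell, from 1.78, 1.74 and 1.62 FPKM in NC to 0.995, 1.09 and 1.17 FPKM in siPSCA (log2 fold change -0.38, adjusted p = 0.0132; -0.50 with the GC trend removed).

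PARP9 and DTX3L form a complex of an ADP-ribosyltransferase with a ubiquitin ligase, and their genes sit head to head on chromosome 3. DTX3L was at 14.1, 15.5 and 17.0 FPKM in NC and at 21.1, 20.5 and 21.5 FPKM in siPSCA (log2 fold change 0.42, adjusted p = 0.00519, limma). PARP9 rose by 0.26 (adjusted p = 0.0260), a call that held only without NC 3 among the fits that left out 1 library and that became 0.47 with the GC trend removed. PARP12, a further ADP-ribosyltransferase, went from 9.02 ± 0.583 to 13.6 ± 0.559 FPKM (SD, n = 3 each; 0.54, adjusted p = 0.00171; 0.35 with the GC trend removed). PARP14 was not called (0.11, adjusted p = 0.270), and it passed with the GC trend removed (0.37, adjusted p = 0.00209).

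Of the 3 tested nuclear and TRIM proteins 1 fell and the others were not called. SP100, a component of nuclear bodies, was called lower by a small margin (log2 fold change -0.16, adjusted p = 0.0475, limma). That call was lost in each of the 6 fits that left out 1 library, and its direction turned with the GC trend removed (0.12, adjusted p = 0.0817). SP110 was at 4.08, 4.53 and 5.45 FPKM in NC and at 5.67, 5.72 and 5.72 FPKM in siPSCA, not called at an adjusted p of 0.0688, and called without NC 3 (0.34, adjusted p = 0.00431) and with the GC trend removed (0.40, adjusted p = 0.00618). TRIM21, a cytosolic antibody receptor, was at 0.20 (adjusted p = 0.0894), and it passed in the fit with a replicate block (adjusted p = 0.0315).

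Of the 5 transcription factors 1 rose, 1 fell and 3 were not called. IRF2, which acts mainly as a repressor at interferon response elements, fell from 5.42, 5.88 and 6.24 FPKM in NC to 3.62, 3.56 and 3.98 FPKM in siPSCA (log2 fold change -0.54, adjusted p = 0.00232, limma; -0.50 with the GC trend removed). IRF1, an activator, was low, at 2.00, 1.84 and 1.96 FPKM in NC and at 2.72, 2.17 and 2.68 FPKM in siPSCA. IRF1 was called higher at the margin (0.26, adjusted p = 0.0493), and lost the call in 5 of the 6 fits that left out 1 library (all but that without siPSCA 2) and with the GC trend removed (0.16, adjusted p = 0.185). Opposite-strand genes overlap 22.0% of the exonic bases of IRF1, and whether reads were assigned by strand is not stated. The same limit applies to IFITM3 (21.3%), SP110 (20.9%), IFNGR2 (12.8%) and XAF1 (38.3%).

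IRF7, the factor that amplifies type I interferon production, was at 14.6, 13.7 and 6.10 FPKM in NC and at 17.4, 15.1 and 16.2 FPKM in siPSCA. Its groups did not overlap, but NC 3 lay far below the other NC libraries. The log2 fold change was 0.55 with an SE of 0.30 (adjusted p = 0.167, limma), 0.18 without NC 3 and -0.22 with the GC trend removed. STAT2 was level, at 21.3, 20.1 and 18.7 FPKM in NC and at 19.3, 19.8 and 18.8 FPKM in siPSCA (-0.05, adjusted p = 0.531). The 95% confidence interval of the STAT2 difference ran from -0.19 to 0.10. IRF9, the partner of STAT2, was at 1.23 ± 0.178 FPKM in NC and 1.59 ± 0.0358 FPKM in siPSCA (SD, n = 3 each) and was not called (0.22, adjusted p = 0.0956). With the GC trend removed IRF9 was at -0.06. All of its 75-base windows also occur in a readthrough gene, AL136295.5.

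Among receptors and kinases, IFNGR1, the ligand-binding chain of the interferon gamma receptor, fell from 12.5, 12.7 and 12.8 FPKM in NC to 9.07, 8.71 and 8.48 FPKM in siPSCA. The libraries within each group were nearly level. The log2 fold change of IFNGR1 was -0.49 with an SE of 0.05 (adjusted p = 0.00121, limma), and -0.26 with the GC trend removed. IFNGR2, the signalling chain, was at -0.14 (adjusted p = 0.0931) and passed with the GC trend removed (-0.41, adjusted p = 0.00276). JAK1, the kinase that serves all interferon receptors, went from 22.2, 23.0 and 27.4 FPKM to 19.3, 18.9 and 20.4 FPKM (-0.29, adjusted p = 0.0308). JAK1 lost its call in 4 of the 6 fits that left out 1 library, those without NC 2 or any one of the siPSCA libraries. TYK2, which pairs with JAK1 at the type I and lambda receptors, rose from 11.5, 10.9 and 7.57 FPKM to 17.4, 17.1 and 16.6 FPKM (0.74, adjusted p = 0.00766). TYK2 is GC-rich, and its log2 fold change was 0.28 with the GC trend removed. The type I receptor chain IFNAR1 was at -0.15 (adjusted p = 0.0961), and passed without NC 1 (-0.20, adjusted p = 0.0473). With the GC trend removed its direction turned (0.07, adjusted p = 0.263).

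A mean of 1 FPKM was not reached by 12 members, and these are given by reads over the 3 libraries of a group, with 95% intervals that cover counting error only. TRIM22, an antiviral ubiquitin ligase, had 48, 53 and 65 reads in NC and 77, 99 and 118 in siPSCA, a ratio of 1.75 (1.45 to 2.14) after scaling to library size. CMPK2 and RSAD2, neighbouring genes of antiviral nucleotide chemistry, had ratios of 1.53 (1.26 to 1.87) and 1.81 (1.32 to 2.50). For OAS2 the ratio was 1.67 (1.08 to 2.61) on 35 and 59 reads. The groups did not overlap for TRIM22, CMPK2, RSAD2 and OAS2, and the exact permutation p was 0.1 for each, the smallest that 3 against 3 allows. Of all genes above the minimum, 33.7% had groups that did not overlap with siPSCA higher. That share was not computed for genes below the minimum, so the separation of these members is a description. EPSTI1 had a ratio of 1.502 (1.22 to 1.85) with overlapping groups.

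The Mx proteins, dynamin-like GTPases that trap viral nucleocapsids, stayed near the bottom of the scale. MX1 had 64, 83 and 73 reads in NC and 71, 68 and 76 in siPSCA, a ratio of 0.968 (0.799 to 1.17). MX2 had 20 reads in NC and 24 in siPSCA. The counting intervals also included 1 for IFI44L (130 and 161 reads), SAMD9L (46 and 68), XAF1 (16 and 19), IFI16 (6 and 4) and IFNAR2 (55 and 50). Of the 75-base windows of IFNAR2, 41.6% also occur in another gene, AP000295.1, and opposite-strand genes overlap 39.1% of its exonic bases. The reads counted for IFNAR2 may thus misstate its level in either direction. SAMD9, the tested relative of SAMD9L, was at 10.97, 10.99 and 12.8 FPKM in NC and at 7.46, 9.83 and 10.1 FPKM in siPSCA, a log2 fold change of -0.32 (adjusted p = 0.0683, limma). SAMD9 had the lowest GC content of the tested members, and with the GC trend removed its log2 fold change was 0.02.

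Interferon genes themselves were near the limit of detection. Of 22 ligand genes 8 had no read in any library, interferon gamma among them, 9 had 1 to 15 reads in all, and 5 had more. IFNB1, the gene of interferon beta, had 1, 1 and 0 reads in NC and 4, 3 and 5 in siPSCA, a ratio of 5.95 (95% counting interval 1.32 to 54.7). IFNL1, a lambda interferon, had 2, 6 and 0 reads in NC and 26, 9 and 18 in siPSCA, a ratio of 6.56 (3.10 to 16.0). Every siPSCA library held more of these reads than every NC library.

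The same order held for IFNL2, with 2, 3 and 1 reads against 8, 16 and 12, and for IFNL3, with 1, 5 and 0 reads against 11, 11 and 11. IFNL2 and IFNL3 share sequence in 12.5% of 75-base windows. Interferon epsilon (IFNE), which epithelia make without infection, had 51, 51 and 37 reads in NC and 15, 25 and 15 in siPSCA, so that it was lower in each siPSCA library. IFNE alone of the ligands reached the FPKM minimum, and its log2 fold change was -0.73 (adjusted p = 0.00774, limma), and -0.38 with the call lost (adjusted p = 0.0988) when the GC trend was removed. IFNE reached that minimum only through NC (mean 1.83 FPKM, against 0.704 FPKM in siPSCA), so that its call depends on the filter. IFNL1, with means of 0.180 FPKM in NC and 1.18 FPKM in siPSCA, did not reach it. IFNA1, an interferon alpha gene, had 3, 2 and 7 reads in NC and 4, 3 and 3 in siPSCA, a ratio of 0.826 (0.320 to 2.09) with an exact permutation p of 0.8. For IFNB1, IFNL1, IFNL2, IFNL3 and IFNE the exact permutation p was 0.1, the smallest that 3 against 3 libraries can give. The share of all genes below the FPKM minimum with groups that did not overlap was not computed. The lambda receptor chain IFNLR1 was at 2.82 ± 0.288 FPKM in NC and 3.32 ± 0.0998 FPKM in siPSCA (SD, n = 3 each) and was not called (log2 fold change 0.18, adjusted p = 0.0980, limma). IL10RB, its partner, stayed at or below 0.249 FPKM in every library. Sequence shared with other genes was not examined for IL10RB, so this value may misstate its level.

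**Figure D4:**
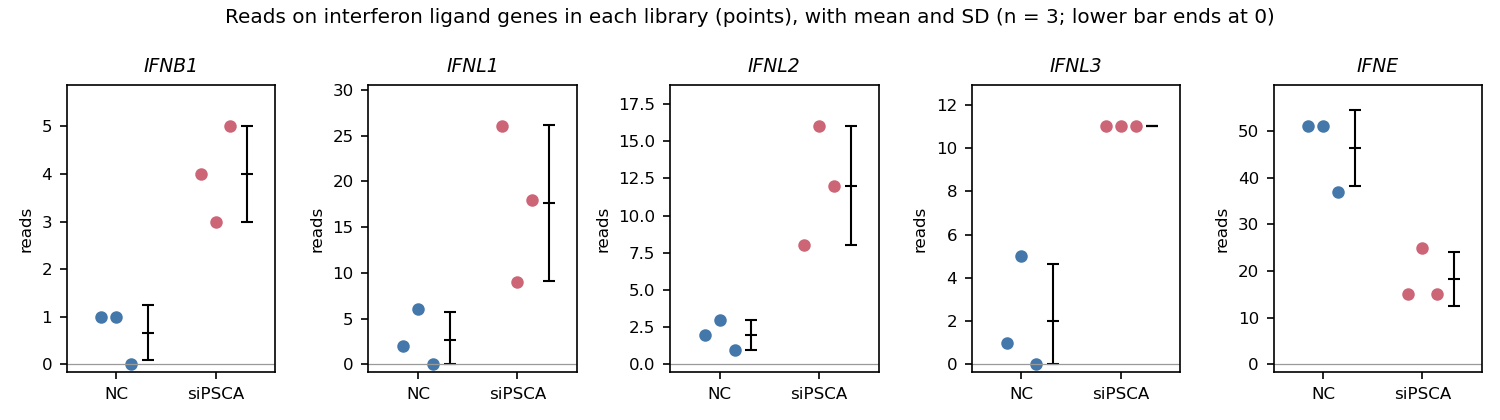
Reads on 5 interferon genes in each library (points), with mean and SD (n = 3; lower bars end at 0), NC in blue and siPSCA in red. The siPSCA points lie above the NC points for IFNB1, IFNL1, IFNL2 and IFNL3, none of which passed 26 reads in a library, and below them for IFNE.

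In a wider list of 81 further signal components and interferon-stimulated genes, rises and falls were close in number. Of its 51 tested genes 18 (35.3%) rose and 16 (31.4%) fell, beside 26.6% and 24.2% of all tested genes, and the median log2 fold change was 0.08. The largest rises were those of SOCS1, which shuts off JAK kinases (3.56 ± 1.46 to 11.9 ± 0.457 FPKM, SD, n = 3 each; log2 fold change 1.56, adjusted p = 0.00408, limma; 0.72 with the GC trend removed), of PARP10 (1.45; 0.73 with the trend removed) and of CCND3 (0.92). The largest fall was that of SAT1 (-0.67), an enzyme of polyamine breakdown. With the GC trend removed, 9 genes of the wider list rose and 10 fell, beside 21.2% and 18.4% of all tested genes.

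The letters of the interferon-stimulated response element were sought in the promoters of the members. RefSeq promoter windows of 300 bases, from 250 before to 50 after a transcript start on GRCh38.p14, were found for 45 members. The core GAAANNGAAA, on either strand, occurred in 25 of the 45 members (55.6%), against 4.38% of all 27305 genes with a window. TTCNNNGAA, the letters of a gamma-activated site, occurred in 12 of the 45 (26.7%), against 9.38% of all genes, and may share bases with the core. Among the tested members with the core 15 of 21 rose and 1 fell (median log2 fold change 0.35), and among those without it 6 of 16 rose and 3 fell (median 0.16). All tested members with the core were effectors, whereas those without it included STAT2, IRF1, IRF9, IFNAR1, IFNGR1, IFNGR2, JAK1 and TYK2. The split by core thus follows role in part, and the core apart from role was not tested. Of the effectors without the core, UBE2L6, OAS1, IFI27L2 and IFI35 rose (log2 fold changes of 0.51, 0.66, 0.47 and 1.07). SP100 fell (-0.16), and HERC6, TRIM25 and SP110 were not called (0.06, 0.09 and 0.24). Of all tested genes with a window, 31.4% of the 328 with the core and 30.1% of the 8770 without it rose. A match of letters is a description and not a binding site.

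The windows below show 40 bases around the core in promoters of members that rose, 5′ to 3′ on the strand of the gene, with the core or its reverse complement in capitals. They are shown because they carry the letters that these genes share. In BST2, ISG15, IFI27 and IFIT1 a pair of cores lies within the window.
IFI27 (chr14:94110626-94110665, plus strand): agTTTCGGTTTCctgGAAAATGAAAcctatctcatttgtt
IFI6 (chr1:27672261-27672300, minus strand): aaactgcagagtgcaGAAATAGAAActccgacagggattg
BST2 (chr19:17405730-17405769, minus strand): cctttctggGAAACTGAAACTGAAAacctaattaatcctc
ISG15 (chr1:1013375-1013414, plus strand): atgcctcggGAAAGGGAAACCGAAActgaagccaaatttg
LGALS3BP (chr17:78979957-78979996, minus strand): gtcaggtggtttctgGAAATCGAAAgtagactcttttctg
IFITM3 (chr11:320871-320910, minus strand): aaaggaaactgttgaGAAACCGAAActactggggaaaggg
OAS3 (chr12:112938434-112938473, plus strand): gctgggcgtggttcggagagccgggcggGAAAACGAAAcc
IFIT1 (chr10:89392505-89392544, plus strand): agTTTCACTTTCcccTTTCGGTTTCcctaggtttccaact

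The core was also present in promoters of members that fell or were not called, which are shown for contrast. ISG20, which fell, and SAMD9, which was not called, hold the letters GAAACTGAAA that BST2 holds, and HERC5 holds the core in reverse. OAS1, IFI35 and UBE2L6 rose with no core in the windows searched.
ISG20 (chr15:88638932-88638971, plus strand): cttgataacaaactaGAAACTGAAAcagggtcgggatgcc
SAMD9 (chr7:93118091-93118130, minus strand): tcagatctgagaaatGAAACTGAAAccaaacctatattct
HERC5 (chr4:88457030-88457069, plus strand): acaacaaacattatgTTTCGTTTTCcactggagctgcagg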

How the data were processed

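The authors deposited 1 table of FPKM values per gene for 6 RNA-seq libraries (NEBNext Ultra kit). The submitters' processing notes name GRCh38, and the aligner and counting program are not given in the sources used here. All 58735 gene positions were those of GENCODE 29. FPKM multiplied by gene length gave whole reads for 100% of values within 0.05 reads, which set the reads and library totals used here. Genes with a mean of at least 1 FPKM entered limma 3.58.1 (R 4.3.3; lmFit, eBayes with a trend) on log2(FPKM + 1), with group as the only term and 2-sided p-values adjusted by Benjamini and Hochberg. The pseudocount of 1 understates changes of low genes. The GC alternative subtracted from each library a spline (5 degrees of freedom) on GC content and length. Read ratios carry 95% intervals of the counts. Figures used matplotlib 3.10.9. The fits were tested on simulated data.

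The members and lists were chosen with earlier results of these data known. Members were taken by role and by size of change, the wider list by its 3 largest rises and falls, some of which are not reported here. Replicate numbers were not taken as pairing in the main fit. Deviations of same-numbered libraries correlated at 0.096, 0.013 and 0.13, and those of different-numbered libraries at -0.13 to 0.042. The values for replicates 1 and 3 were thus small but above all those of different-numbered libraries.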

Additional observations from a re-analysis of the deposited data

How the results depend on the processing

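The number of members that rose (24) stayed within 1.5 times of itself under every alternative run except a rule on the unadjusted p (under 0.05) and the size of the log2 change (over 0.5), which gave 13, and it ran from 18 to 25 when 1 library was left out. The number that fell (5) was 3 with no FPKM minimum, 1 under the unadjusted rule and 3 to 6 when 1 library was left out. For the wider list, the rises (18) were 11 with no minimum, 9 with the GC and length trend removed, 8 under the unadjusted rule and 10 to 21 when 1 library was left out, and the falls (16) were 10 with the trend removed and 5 under the unadjusted rule. The median log2 fold change of the tested members was 0.35 with a pseudocount of 0.1, 0.38 with limma-voom on the recovered reads, 0.23 after centring on the median gene, and 0.25 to 0.34 when 1 library was left out. SP100 turned from -0.16 to 0.12 with the trend removed. With a replicate block 24 members rose and 5 fell; SP100 and IRF1 lost their calls and SAMD9 and TRIM21 gained one. For these lists the cause was not tested. In TPM 19 members rose and 7 fell, and after centring 18 and 6. Over all tested genes TPM gave 3302 rises and 3480 falls, and centring gave 3260 and 3535. Depth limits the 12 members below the FPKM minimum, whose ratios rest on counting intervals. Over all 13796 tested genes, 3668 rose and 3333 fell; limma-voom on the reads gave 4164 and 3224, the unadjusted rule 2027 and 1407, and the fits without siPSCA 1 and without siPSCA 2 gave 2299 and 2402 rises.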
